A study of Homo sapiens with 12 samples.

Results

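The genes described here are 10 of the 58735 genes in the deposited FPKM table, taken by symbol: TFRC, STEAP3 and SLC11A2, which bring iron into the cytosol, FTH1, FTL and NCOA4, which store iron and release it again, SLC40A1 and CP, which serve its export, and IREB2 and ACO1, which encode the iron regulatory proteins. All 10 symbols were found, each in a single row, and 9 of the 10 reached 1 FPKM (a level per length: fragments divided by gene length and by library size) in at least 3 of the 12 libraries. The exception was SLC40A1. RNA of 2 cell lines labelled as human hepatoma was sequenced after 48 h with or without geniposide, an iridoid glycoside from gardenia fruit. The 4 groups, with 3 libraries each, were Huh7 cells given geniposide, untreated Huh7 cells, HepG2 cells given geniposide and untreated HepG2 cells. No dose, vehicle or genetic change is given in the labels. By its title the study asked about ferroptosis, a form of cell death that depends on iron and lipid peroxidation.

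Cells take up iron as transferrin bound to transferrin receptor 1, reduce it in the endosome, and move it into the cytosol, where it is used, stored in ferritin shells or exported. Hepatocytes are a main store of iron in the body. When iron is scarce, iron regulatory proteins bind a hairpin called the iron-responsive element (IRE): at the 5′ end of ferritin mRNAs it holds back translation, and in the 3′ end of TFRC mRNA it protects the message from decay. RNA counts can therefore report on the TFRC arm of this control but not on the translational arm.

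The hairpins found in the members' mRNAs are printed here because they show at which end of the mRNA each match lies. They were read from GENCODE 29 transcripts on build hg38, and the capitals mark the 6-base loop.
FTH1, 5′ UTR, minus strand, chr11:61967573-61967602: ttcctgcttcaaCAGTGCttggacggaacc
FTL, 5′ UTR, plus strand, chr19:48965335-48965364: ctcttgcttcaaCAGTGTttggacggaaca
SLC40A1, 5′ UTR, minus strand, chr2:189580660-189580689: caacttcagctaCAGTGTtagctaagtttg
TFRC, 3′ UTR, minus strand, chr3:196050978-196051007: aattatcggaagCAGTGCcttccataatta
TFRC, 3′ UTR, minus strand, chr3:196050574-196050603: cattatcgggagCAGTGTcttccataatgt
TFRC, 3′ UTR, minus strand, chr3:196050509-196050538: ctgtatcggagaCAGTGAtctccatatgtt
TFRC, 3′ UTR, minus strand, chr3:196050462-196050491: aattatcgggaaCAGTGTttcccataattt
The search used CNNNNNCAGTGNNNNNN on the transcript's own strand, with no G after CAGTG and with 5 stem pairs, G-T pairs allowed. It found the motif in 4 of the 10 members, against 214 of 19659 protein-coding genes, or 1.09%. These 4 were already known to carry an IRE, so their share is no test of the set. SLC11A2, counted below among mRNAs with a known IRE, had no match in this search. FTH1, FTL and SLC40A1 held it in the 5′ UTR, and TFRC held 4 sites in the 3′ UTR. A match describes the letters and does not show a working element, and in the other members no match says only that these letters were not found in the transcripts searched.

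The libraries held 15056655 to 17211659 fragments. The labelled cell type was not borne out by its markers: 0 of 12 hepatocyte genes passed the filter in any group, APOB was at 0 in all 12 libraries, and the summed level of the list was 0.231 to 0.624 FPKM, so the groups are called by the names on their labels. Of the other marker lists, 0 of 8 endothelial, 1 of 10 leukocyte, 1 of 10 erythroid and 6 of 10 fibroblast genes passed. The fibroblast sum was 8.46 to 10.1 FPKM with geniposide and 5.61 to 6.02 FPKM untreated in Huh7, and 106 to 110 FPKM with geniposide and 73.7 to 75.4 FPKM untreated in HepG2, with COL1A2 at 0 throughout. DCN, LUM and PDGFRB had at most 0.293 FPKM in any Huh7 library and so passed through HepG2 alone. LUM was the largest part of the HepG2 sum, with 57.8 to 60.7 FPKM with geniposide and 35.2 to 35.6 FPKM untreated. COL3A1, DCN and ACTA2 were also higher with geniposide in HepG2, while COL1A1 and PDGFRB were lower. Whether fibroblasts were present, and any part of them in the results, was not tested. One library stood apart: geniposide Huh7 replicate 3 differed from the others of its group by a chi-square per degree of freedom of 38.9 and 40.0, against 2.15 to 6.06 for the other pairs within groups. In untreated HepG2 replicate 3, HBB had 143 fragments against 0 in the other 11 libraries, and the leukocyte sum was 2.55 FPKM against 0.107 and 0.153 FPKM in its group. Results that rest on either library are given with and without it.

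Geniposide was followed by lower TFRC in both lines and by changes in other iron genes that differed between the lines. In HepG2, CP and FTH1 were higher, and TFRC, SLC11A2 and FTL were lower. In Huh7, TFRC, STEAP3 and IREB2 were lower, and none of the 10 was higher past the threshold. Changes are differences in log2(FPKM + 1) ± SE from limma over all genes, and "called" means an adjusted p under 0.05. Of the 10 members, 3 were called in Huh7, all lower, where 34.5% of all tested genes were called (16.4% higher and 18.1% lower). Of those calls 47.5% were higher, against 61.6% with TPM scaling. In HepG2 5 were called, 2 higher and 3 lower, where 42.5% of all tested genes were (21.0% higher and 21.5% lower). Treated and untreated libraries did not overlap for 6 of the 10 members in Huh7, against 43.9% of all tested genes, and for 8 of the 10 in HepG2, against 58.9%. The members were thus called at about the rate of all genes, and the account below rests on each gene's own values. In these bulk samples, fewer cells of a type and less RNA per cell cannot be told apart.

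**Figure D1:**
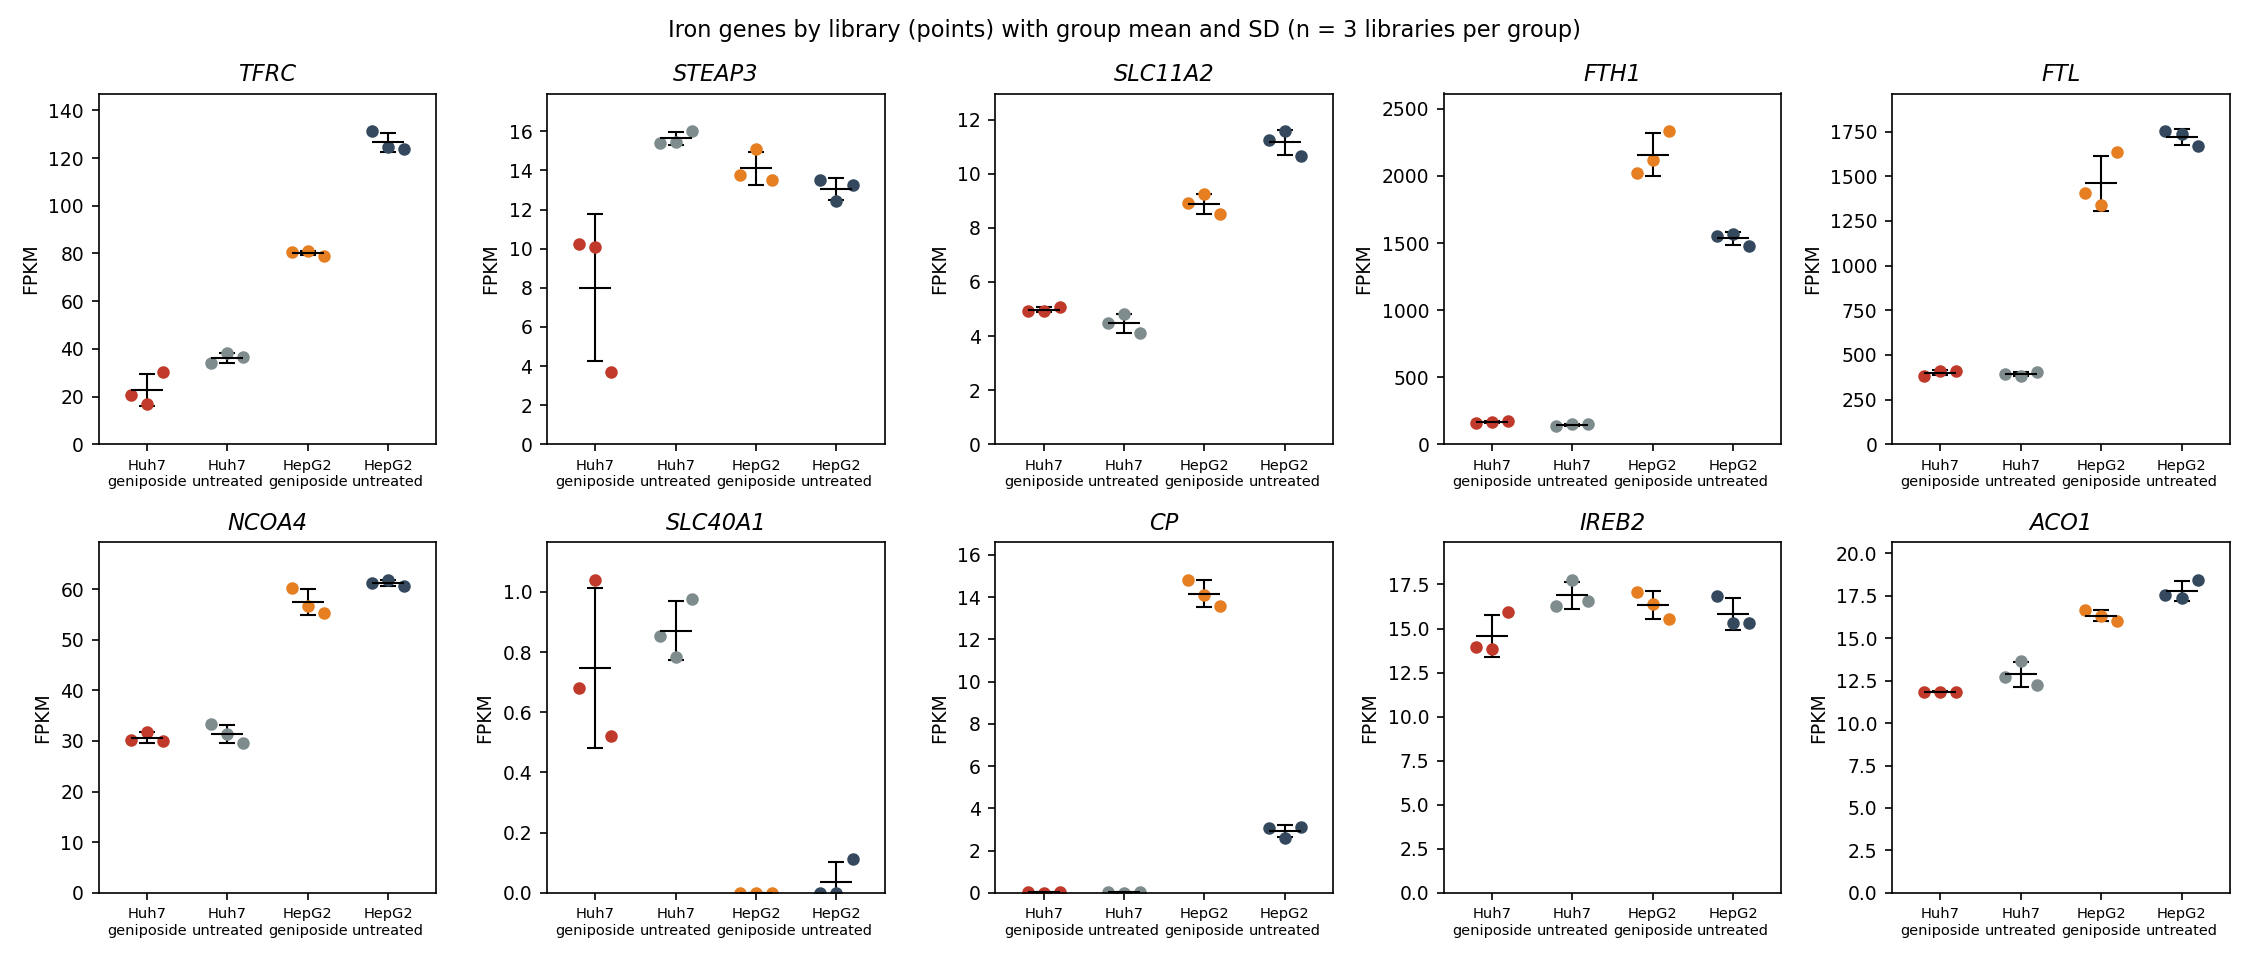
FPKM of the 10 iron genes in each of the 12 libraries, 1 panel per gene with its own linear axis from 0. Points are libraries, and bars are the mean and SD of the 3 libraries of a group. TFRC lies lower with geniposide in both lines, CP and FTH1 lie higher with geniposide in HepG2, and SLC40A1 is at 0 in 5 of the 6 HepG2 libraries.

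TFRC encodes transferrin receptor 1, the main entry route of iron into dividing cells, and lies on chromosome 3 at 196027183 to 196082189. In Huh7 it had 20.8, 17.1 and 30.1 FPKM with geniposide, against 34.0, 38.1 and 36.6 FPKM untreated. The HepG2 values were 80.7, 80.9 and 79.1 FPKM with geniposide, against 131, 125 and 124 FPKM untreated. The groups did not overlap in either line, and the highest treated Huh7 value came from the library that stands apart. The ratio of treated to untreated means was 0.626 in Huh7 and 0.634 in HepG2. On the log2 scale TFRC changed by -0.69 ± 0.15 in Huh7 (adjusted p = 0.00496) and by -0.65 ± 0.15 in HepG2 (adjusted p = 0.00491). Its effects in the lines differed by 0.04 (adjusted p = 0.914), with a 95% interval of that difference from -0.43 to 0.51. Without geniposide Huh7 replicate 3 the Huh7 change was -0.91 (adjusted p = 1.02e-05), and the effects in the lines differed by 0.25 (adjusted p = 0.0635). With the Huh7 libraries fitted alone the Huh7 change of all libraries kept its size but lost the call (adjusted p = 0.0685), in a fit that called 21.0% of genes.

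STEAP3 encodes the endosomal reductase that turns the iron released from transferrin into its ferrous form. It had 10.2, 10.1 and 3.69 FPKM in Huh7 with geniposide, against 15.4, 15.5 and 16.0 FPKM untreated. All treated Huh7 libraries lay under all untreated ones, and replicate 3 lay far under the other 2. The change was -0.99 ± 0.26 (adjusted p = 0.0139), and without replicate 3 it was -0.57 with a smaller SE of 0.05 (adjusted p = 1.81e-05). In HepG2 STEAP3 had 13.8, 15.1 and 13.5 FPKM with geniposide, against 13.5, 12.4 and 13.2 FPKM untreated, a change of 0.10 ± 0.26 (adjusted p = 0.811). That SE comes from a spread shared by all libraries, geniposide Huh7 replicate 3 included, and is not the HepG2 spread alone. Leaving out 1 library at a time gave an adjusted p of 0.0794 to 0.938 for the HepG2 change. The HepG2 groups nearly touched at their edges, and the HepG2 effect lay over the Huh7 effect by 1.09 ± 0.37 (adjusted p = 0.0493), or 0.68 without geniposide Huh7 replicate 3 (adjusted p = 6.92e-05). That difference lost its call when any untreated Huh7 library or any HepG2 library was left out (adjusted p = 0.0773 to 0.0986) and under 7 of 9 other settings (adjusted p up to 0.112). With the Huh7 libraries fitted alone the fall lost its call (adjusted p = 0.112). Its exons share 500 of 4562 bases with STEAP3-AS1, which averaged at most 0.242 FPKM in any group.

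SLC11A2 encodes DMT1, which carries ferrous iron out of the endosome. HepG2 cells had 8.91, 9.24 and 8.49 FPKM with geniposide, against 11.3, 11.6 and 10.7 FPKM untreated. In Huh7 it had 4.91, 4.91 and 5.08 FPKM with geniposide, against 4.47, 4.82 and 4.12 FPKM untreated. The groups did not overlap in either line, with the treated libraries low in HepG2 and high in Huh7. The HepG2 fall was -0.30 ± 0.06 (adjusted p = 0.00178). The Huh7 value of 0.13 ± 0.06 was not called (adjusted p = 0.115), although TPM scaling (0.22, adjusted p = 0.0347), median-of-ratios scaling (adjusted p = 0.0462) and voom (adjusted p = 0.0199) called it. The effects differed between the lines by -0.43 ± 0.08 (adjusted p = 0.00365).

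FTH1 encodes the ferritin heavy chain, which oxidises iron as it enters the storage shell. FTH1 reached 2025, 2118 and 2334 FPKM in HepG2 with geniposide, against 1554, 1570 and 1480 FPKM untreated. In Huh7 it had 157, 166 and 175 FPKM with geniposide, against 139, 150 and 149 FPKM untreated. Every treated library lay over every untreated one in both lines. The HepG2 rise was 0.49 ± 0.07 (adjusted p = 0.000207), 1.41 times the untreated mean, and FTH1 ranked 7 among protein-coding genes by FPKM with geniposide and 16 untreated. The Huh7 value of 0.18 ± 0.07, 1.14 times the untreated mean, was not called (adjusted p = 0.0587), but it was called under TPM scaling (adjusted p = 0.00789), quantile normalization (adjusted p = 0.00293), median-of-ratios scaling (adjusted p = 0.0173), voom (adjusted p = 0.00645) and the 5 FPKM filter (adjusted p = 0.0488), and without geniposide Huh7 replicate 1 (adjusted p = 0.0452) or geniposide HepG2 replicate 3 (adjusted p = 0.0350). The lines differed in effect by 0.31 ± 0.10 (adjusted p = 0.0364), a call that was lost without a filter (adjusted p = 0.163), with voom and with a replicate block. It was also lost when any library but untreated Huh7 replicate 1, geniposide Huh7 replicate 3 or geniposide HepG2 replicate 1 was left out (adjusted p = 0.0549 to 0.0893).

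The protocol does not mark strand, and 1267 of the 2030 exon bases of FTH1 overlap BEST1, a chloride channel gene on the opposite strand, so fragments of the pair cannot be told apart there. BEST1 had 1.07, 1.40 and 6.18 FPKM in Huh7 with geniposide, against 0.194, 0.120 and 0.156 FPKM untreated. In fragments that was 179, 219 and 1026 beside 5942, 5914 and 6587 for FTH1 with geniposide, against 30, 18 and 23 beside 4875, 5125 and 5014 for FTH1 untreated. In HepG2 BEST1 had 8 to 15 fragments with geniposide and 3 to 12 untreated, against at least 43251 for FTH1. Processed copies of FTH1 elsewhere in the genome held 1.20 to 1.79% of the fragments of parent and copies together, and those of FTL held 0.0475 to 0.254%.

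FTL encodes the ferritin light chain, which favours mineral formation inside the shell. In HepG2 it had 1408, 1338 and 1634 FPKM with geniposide, against 1753, 1735 and 1672 FPKM untreated. In Huh7 it had 384, 410 and 409 FPKM with geniposide, against 394, 384 and 406 FPKM untreated. The HepG2 groups did not overlap and the Huh7 groups did. The HepG2 fall of -0.24 ± 0.07 was called (adjusted p = 0.0222), but with quantile normalization it was -0.10 (adjusted p = 0.579) and with the HepG2 libraries fitted alone it lost the call (adjusted p = 0.128). The call was lost too without a filter (adjusted p = 0.168), with median-of-ratios scaling (adjusted p = 0.0580) and with a replicate block (adjusted p = 0.0741). It also lost the call without untreated HepG2 replicate 1 (adjusted p = 0.0702) or 2 (adjusted p = 0.0630) and without geniposide HepG2 replicate 1 (adjusted p = 0.0775) or 2 (adjusted p = 0.0842). The Huh7 value was 0.02 ± 0.07 (adjusted p = 0.865), and the line effects differed by -0.26 (adjusted p = 0.0849), or by -0.35 without geniposide HepG2 replicate 3 (adjusted p = 0.0113). That difference was also called with TPM scaling (-0.27, adjusted p = 0.0442) and voom (-0.33, adjusted p = 0.0245).

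NCOA4 encodes the receptor that takes ferritin to the lysosome for iron release. It had 30.3, 31.9 and 29.9 FPKM in Huh7 with geniposide, against 33.3, 31.4 and 29.6 FPKM untreated. In HepG2 it had 60.3, 56.6 and 55.3 FPKM with geniposide, against 61.3, 61.9 and 60.6 FPKM untreated. The Huh7 groups overlapped, and the HepG2 groups stood apart by a small margin. Neither value was called, with -0.03 ± 0.05 in Huh7 (adjusted p = 0.693) and -0.09 ± 0.05 in HepG2 (adjusted p = 0.193).

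Because both members of a ratio come from the same library, ratios do not depend on how a library was scaled. The TFRC to FTH1 ratio sets the uptake receptor beside the storage chain, a pair that iron regulatory proteins control in opposite directions at the protein level. It averaged 0.136 ± 0.0351 in Huh7 with geniposide and 0.248 ± 0.00482 untreated, and 0.0373 ± 0.00308 in HepG2 with geniposide and 0.0825 ± 0.00281 untreated (SD, n = 3 each). Every treated library lay under every untreated library of its line, which follows from the separation of TFRC and of FTH1 given above. The mean log2 change over both lines was -1.02, with -0.90 in Huh7 and -1.15 in HepG2. Exact permutation within lines gave a two-sided p of 0.005, the smallest that 400 arrangements allow. That p was fixed by the lack of overlap, so it is no separate test of the pair. The share of other gene pairs that reach it was not computed. Within a line the 20 arrangements cannot give a p under 0.1, and both lines gave an exact p of 0.1. Leaving out any library kept the mean change between -1.12 and -0.93.

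The ratio of heavy to light ferritin chains also moved the same way in both lines. FTH1 over FTL averaged 0.414 ± 0.0115 in Huh7 with geniposide and 0.370 ± 0.0194 untreated, and 1.48 ± 0.0863 in HepG2 with geniposide and 0.892 ± 0.0112 untreated (SD, n = 3 each). The treated and untreated libraries of a line did not overlap. The mean log2 change was 0.45 (exact permutation, two-sided p = 0.005), made of 0.16 in Huh7 and 0.73 in HepG2. Here too the p follows from the lack of overlap, and the share of other gene pairs that reach it was not computed. In HepG2, FTL was the higher of the pair in FPKM untreated and FTH1 was the higher with geniposide. This crossing holds for FPKM only, which divides by a length of 2030 bases for FTH1 and 878 for FTL. In fragments FTH1 was the higher already in untreated HepG2, with 46924, 48382 and 43251 against 22899, 23126 and 21141 for FTL.

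**Figure D2:**
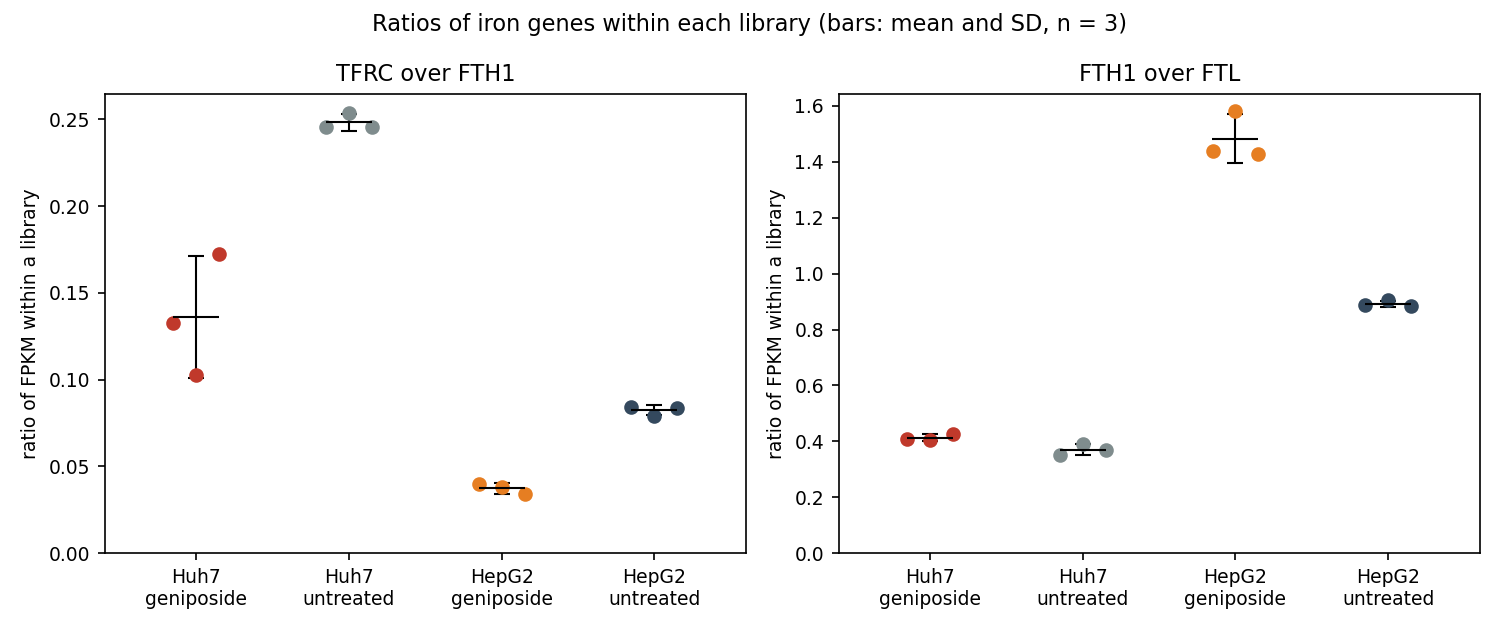
Ratio of FPKM within each library for TFRC over FTH1 (left) and FTH1 over FTL (right), on linear axes from 0. Points are libraries, and bars are the mean and SD of 3. With geniposide the first ratio is lower and the second is higher in both lines, with no overlap between treated and untreated libraries of a line.

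CP encodes ceruloplasmin, a copper ferroxidase that loads exported iron onto transferrin, and lies on chromosome 3 at 149162410 to 149222055. In HepG2 it had 14.8, 14.1 and 13.6 FPKM with geniposide, against 3.09, 2.59 and 3.12 FPKM untreated. That is 4.83 times the untreated mean, and the rise of 1.95 ± 0.07 on the log2 scale (adjusted p = 4.55e-08) was called in each alternative fit run, those that left out a single library included. In Huh7 CP was at the edge of detection, with 4, 1 and 4 fragments with geniposide, against 2, 0 and 6 fragments untreated, so no fold is given there. CP passed the filter through HepG2 alone, and the 1 FPKM added before the log holds its Huh7 effect near 0. The difference between the line effects, 1.95 ± 0.10 (adjusted p = 1.64e-06), therefore repeats the HepG2 rise and is no separate test. Voom on the recovered fragments did not call that difference (adjusted p = 0.190). CP shares 1418 of 7296 exon bases with HPS3 on the opposite strand, a gene for lysosome-related organelles. HPS3 averaged 16.9 ± 0.352 FPKM in HepG2 with geniposide and 12.3 ± 0.213 FPKM untreated (SD, n = 3 each), a change of 0.44 ± 0.05 (adjusted p = 0.000101). The part of the shared bases in the CP value was not tested.

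SLC40A1 encodes ferroportin, the known exporter of cellular iron. It had 0.681, 1.04 and 0.522 FPKM in Huh7 with geniposide, against 0.853, 0.782 and 0.976 FPKM untreated. The Huh7 groups overlapped, and the change of -0.11 ± 0.10 was not called (adjusted p = 0.593, unfiltered fit). In HepG2 it had 0 fragments in all 3 geniposide libraries and in untreated replicates 1 and 2, where a count of 0 allows up to 0.0489 FPKM by counting error. The other untreated HepG2 library, replicate 3, had 7 fragments (0.112 FPKM). It is the library with the haemoglobin and leukocyte transcripts given above, and their part in these 7 fragments was not tested. Whether geniposide changed SLC40A1 in HepG2 was not detectable at this depth.

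IREB2 and ACO1 encode iron regulatory proteins 2 and 1, which bind the hairpins printed above. IREB2 had 14.0, 13.9 and 15.9 FPKM in Huh7 with geniposide, against 16.3, 17.8 and 16.6 FPKM untreated. The groups stood apart by a small margin, and the change of -0.20 ± 0.07 was called (adjusted p = 0.0396). That call was lost under 8 of 10 other settings, TPM scaling giving -0.13 (adjusted p = 0.204), and when any untreated Huh7 library was left out (adjusted p = 0.0591 to 0.139). It was also lost without geniposide Huh7 replicate 1 (adjusted p = 0.111) or 2 (adjusted p = 0.118), and marginally without untreated HepG2 replicate 2 or 3 or geniposide HepG2 replicate 2 (adjusted p = 0.0523 to 0.0553). In HepG2 IREB2 had 17.1, 16.4 and 15.5 FPKM with geniposide, against 16.9, 15.3 and 15.3 FPKM untreated, with overlapping groups and a value of 0.04 ± 0.07 (adjusted p = 0.664). The difference between lines, 0.24 (adjusted p = 0.0794), was called without geniposide Huh7 replicate 3 (0.30, adjusted p = 0.00979). ACO1, which doubles as a cytosolic aconitase, had 11.9, 11.9 and 11.8 FPKM in Huh7 with geniposide, against 12.7, 13.6 and 12.2 FPKM untreated. It had 16.6, 16.3 and 16.0 FPKM in HepG2 with geniposide, against 17.5, 17.4 and 18.5 FPKM untreated. ACO1 was lower in every treated library of both lines, by 0.919 and 0.918 times in the means, but neither value was called (-0.11, adjusted p = 0.102 in Huh7, and -0.12, adjusted p = 0.0767 in HepG2). Without geniposide Huh7 replicate 3, the HepG2 value of ACO1 was called (adjusted p = 0.0372).

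Of the 10 members, 4 were called for a difference between the lines in the geniposide effect, where 27.8% of all tested genes were (14.1% higher and 13.7% lower). CP, STEAP3 and FTH1 had the larger effect in HepG2 on the signed scale, and SLC11A2 had the smaller. CP, at the edge of detection in Huh7, is counted here through its HepG2 rise alone. For the count, the no-filter fit and the fit with a replicate block each left 2.

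**Figure D3:**
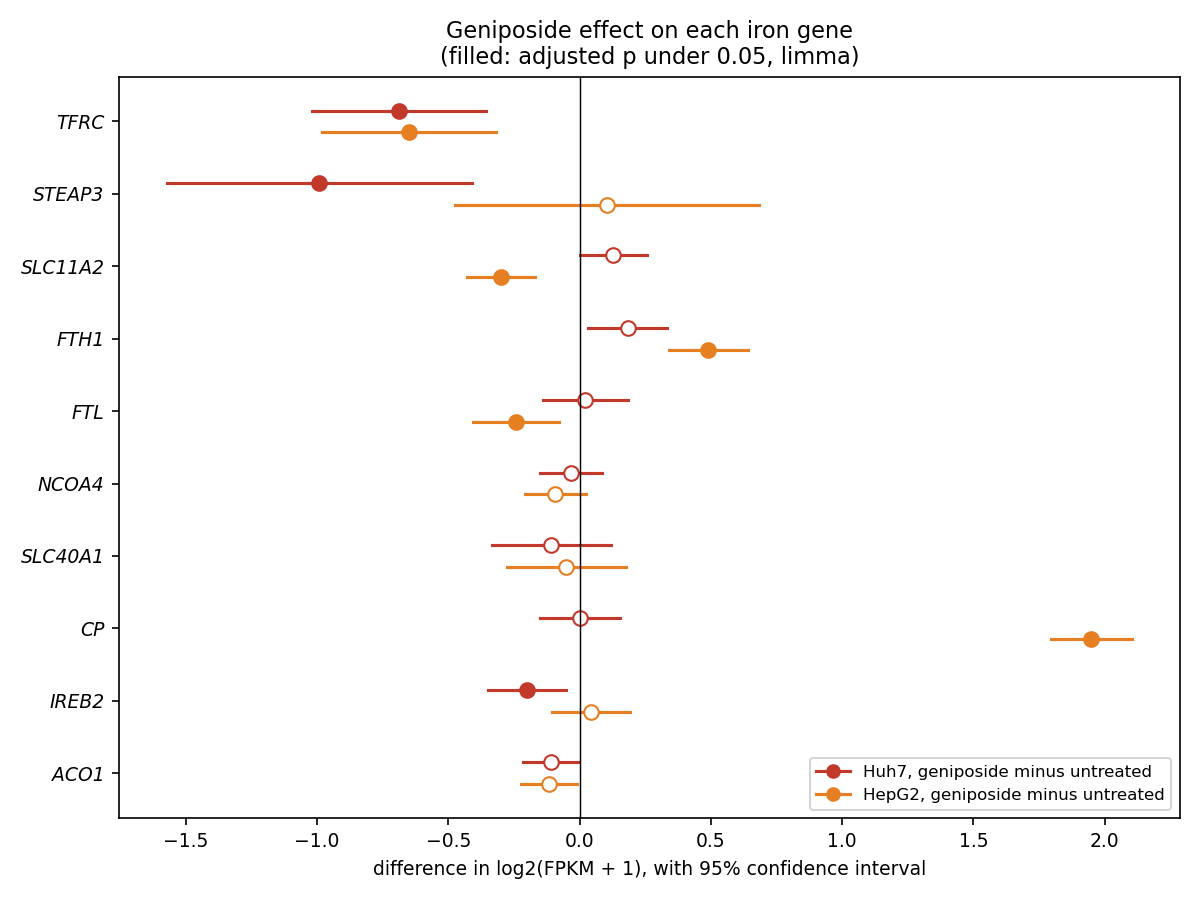
Geniposide effect in log2(FPKM + 1) for each of the 10 iron genes in Huh7 and HepG2, with 95% intervals from limma. TFRC is lower in both lines, while CP lies at 1.95 in HepG2 and at 0 in Huh7, and STEAP3 lies at -0.99 in Huh7 and at 0.10 in HepG2. CP had at most 6 fragments in a Huh7 library, so its place at 0 there is set by the scale. Filled points are called.

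Before any treatment the lines held different amounts of iron gene RNA, and most members were higher in HepG2. Of the 10 members, 8 were called between untreated HepG2 and untreated Huh7, where 71.8% of all tested genes were (36.1% higher and 35.8% lower). FTH1 averaged 1535 ± 48.2 FPKM in untreated HepG2 and 146 ± 6.32 FPKM in untreated Huh7 (SD, n = 3 each), a difference of 3.39 on the log2 scale. FTL averaged 1720 ± 42.5 FPKM in untreated HepG2 and 395 ± 10.8 FPKM in untreated Huh7, a difference of 2.12. TFRC (1.78), CP (1.94), SLC11A2 (1.15), NCOA4 (0.94) and ACO1 (0.44) were also higher in HepG2 on this scale, with the highest adjusted p among these 7 at 8.59e-06. CP is in the filtered fit through HepG2 alone. SLC40A1 was lower by -0.85 in HepG2 (adjusted p = 5.66e-05, unfiltered fit), and without untreated HepG2 replicate 3 the value was -0.90. IREB2 (-0.09, adjusted p = 0.259) and STEAP3 (-0.24, adjusted p = 0.423) were not called, although without geniposide Huh7 replicate 3 STEAP3 was (-0.24, adjusted p = 0.000634). Scaling to TPM put the median of all genes between the untreated lines at -0.27, and under it FTH1 was 3.11, ACO1 was 0.18 and IREB2 was -0.37 (adjusted p = 0.00105). IREB2 was also called with quantile normalization (-0.31, adjusted p = 0.000979), where the median of all genes was -0.08. With voom it was -0.38 (adjusted p = 0.000273), where that median was -0.29. The total that the deposited FPKM divides by was 1.09 to 1.10 times the fragments summed over genes in untreated Huh7. In untreated HepG2 it was 0.895 to 0.912 times that sum. The part of scaling in the IREB2 call was not tested. No member that was called changed sign with TPM scaling.

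The members were also ordered by FPKM, which is per length. In untreated Huh7 it ran FTL, FTH1, TFRC, NCOA4, IREB2, STEAP3, ACO1, SLC11A2, SLC40A1 and CP. With geniposide, NCOA4 (30.7 ± 1.05 FPKM) came before TFRC (22.7 ± 6.72 FPKM) in Huh7, where TFRC's highest library at 30.1 reached into the NCOA4 range. ACO1 (11.8 ± 0.0285 FPKM) also came before STEAP3 (8.01 ± 3.74 FPKM) there, and without replicate 3 STEAP3 still lay under ACO1 in both other libraries. In untreated HepG2 it ran FTL, FTH1, TFRC, NCOA4, ACO1, IREB2, STEAP3, SLC11A2, CP and SLC40A1. With geniposide FTH1 came before FTL in HepG2, and CP came before STEAP3 and SLC11A2. The neighbours IREB2 and ACO1 (both 16.3 FPKM) and the neighbours CP (14.2) and STEAP3 (14.1) did not differ beyond their SD in treated HepG2.

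Other genes of iron handling were read from lists beside the members. The median change of all tested genes was 0.00 in each line, and the shares called are those given above for each line. Without geniposide Huh7 replicate 3, 46.0% of all genes were called in Huh7 and 54.4% in HepG2, so list counts below are given again without it where the number called moved by 1.5 times or more. Of 15 tested genes of iron uptake and membrane transport, 2 rose and 2 fell in Huh7 (list median 0.02) and 3 rose and 4 fell in HepG2 (list median 0.02). LRP1, an endocytic receptor that takes up haem bound to hemopexin, rose in both lines, with 13.2 ± 2.81 FPKM with geniposide and 8.15 ± 0.353 FPKM untreated in Huh7 (0.62, adjusted p = 0.0137, and 0.0503 without geniposide Huh7 replicate 2), and 90.0 ± 18.0 FPKM with geniposide and 37.3 ± 2.99 FPKM untreated in HepG2 (1.23, adjusted p = 0.000153). CYBRD1, a ferric reductase, rose in HepG2 to 14.6 ± 0.715 FPKM, against 7.04 ± 0.216 FPKM untreated (0.95, adjusted p = 1.65e-06), and was near 1 FPKM in Huh7 (1.20 with geniposide and 1.08 untreated). TFR2, the liver-type transferrin receptor, had 8.64 ± 0.812 FPKM with geniposide and 6.15 ± 0.275 FPKM untreated in HepG2 (0.43, adjusted p = 0.000548). Its partner HFE fell in HepG2 (-0.26, adjusted p = 0.0249), a call lost without untreated HepG2 replicate 1 or 2 or geniposide HepG2 replicate 1 or 3 (adjusted p = 0.0637 to 0.0842). The HFE call was also lost with a pseudocount of 0.1, without a filter, and with TPM, quantile or median-of-ratios scaling (adjusted p = 0.0506 to 0.311). Huh7 had 0 to 2 fragments of TFR2 per library. MCOLN1, an iron channel of the lysosome, fell in both lines (-0.29, adjusted p = 0.0103 in Huh7 and -0.30, adjusted p = 0.00669 in HepG2). With voom its Huh7 call was lost (adjusted p = 0.0559). MON1A, which acts in ferroportin trafficking, fell in HepG2 (-0.55, adjusted p = 0.000607), and SLC39A14, an importer of free iron, was not called in either line in the fit of all libraries (0.20 in Huh7 and 0.30 in HepG2). Its HepG2 value was called without geniposide Huh7 replicate 1 (adjusted p = 0.0445) or 3 (adjusted p = 3.88e-05), with the HepG2 libraries alone (adjusted p = 0.000855), and with TPM scaling (adjusted p = 0.0329), quantile normalization (adjusted p = 0.00842), median-of-ratios scaling (adjusted p = 0.0246) and voom (adjusted p = 0.0379). Its Huh7 value was called with quantile normalization (adjusted p = 0.0394). TF, the gene of transferrin, had at most 47 fragments in a library, and the iron hormone gene HAMP at most 1.

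Among 17 tested regulators of iron, 4 rose and 4 fell in Huh7 (list median -0.05) and 3 rose and 4 fell in HepG2 (list median -0.04). SKP1 and CUL1, which with FBXL5 make up the ligase that removes IRP2, fell in both lines, SKP1 by -0.38 (adjusted p = 0.000715) in Huh7 and -0.31 (adjusted p = 0.00151) in HepG2, and CUL1 by -0.32 (adjusted p = 0.00528) in Huh7 and -0.36 (adjusted p = 0.00203) in HepG2. FBXL5 itself, the iron-sensing subunit, was not called (-0.11 in Huh7 and 0.11 in HepG2, adjusted p = 0.210 and 0.196). BMP2, a hepcidin-inducing ligand, fell in Huh7 to 22.9 ± 1.89 FPKM, against 36.7 ± 1.82 FPKM untreated (-0.66, adjusted p = 7.42e-05), and its HepG2 value was 0.04. EPAS1, a hypoxia factor whose mRNA is known to carry an IRE, fell in Huh7 to 6.01 ± 1.41 FPKM, against 10.5 ± 0.334 FPKM untreated (-0.74, adjusted p = 0.000827). Counting the members among them, 7 tested mRNAs with a known IRE gave 1 rise and 2 falls in Huh7 (list median 0.05) and 2 rises and 3 falls in HepG2 (list median 0.05). The Huh7 count was 5 with TPM scaling, median-of-ratios scaling or voom.

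The chaperone PCBP2, which can hand iron to ferritin, rose in both lines, to 26.4 ± 1.77 FPKM with geniposide against 18.8 ± 0.520 FPKM untreated in Huh7 (0.47, adjusted p = 0.000224) and to 44.1 ± 2.71 FPKM with geniposide against 28.7 ± 0.878 FPKM untreated in HepG2 (0.60, adjusted p = 2.32e-05). PCBP1, its close relative, was called in neither (-0.14 in Huh7 and 0.10 in HepG2), but without geniposide Huh7 replicate 3 its Huh7 value was -0.27 (adjusted p = 0.00676). The chaperone list held 6 tested genes, with 2 rises and 1 fall in Huh7 (list median -0.04) and 1 rise and 2 falls in HepG2 (list median -0.27). Without geniposide Huh7 replicate 3 there were 2 rises and 3 falls in Huh7 and 1 rise and 4 falls in HepG2.

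Genes that deliver ferritin to the lysosome gave 1 rise and 4 falls of 11 in Huh7 (list median -0.03) and 5 rises and 0 falls in HepG2 (list median 0.06). LAMP2, a lysosomal membrane protein, had 23.5 ± 1.99 FPKM with geniposide and 28.5 ± 0.632 FPKM untreated in Huh7 (-0.27, adjusted p = 0.00522), and 38.2 ± 1.17 FPKM with geniposide and 28.7 ± 0.943 FPKM untreated in HepG2 (0.40, adjusted p = 0.000304). Its effects differed between the lines by 0.67 (adjusted p = 0.000318). ATG9A, a scramblase that feeds forming autophagosomes, moved the same way, with -0.30 in Huh7 (adjusted p = 0.00563), 0.41 in HepG2 (adjusted p = 0.000579) and a difference of 0.72 (adjusted p = 0.000478). TAX1BP1, which works with NCOA4 in ferritin turnover, rose in HepG2 (0.48, adjusted p = 0.000579) and had 0.09 in Huh7. The NCOA4 values given above did not pass the test in either line.

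Iron-sulfur cluster assembly had 12 falls and 2 rises among 23 tested genes in HepG2 (list median -0.19), and 2 falls and 1 rise in Huh7 (list median -0.11). Without geniposide Huh7 replicate 3 there were 10 falls and 2 rises in Huh7 and 14 falls and 3 rises in HepG2. The number called in Huh7, 3 in the fit of all libraries, was 5 without geniposide Huh7 replicate 1 or without geniposide HepG2 replicate 3. It was 7 with TPM scaling, 6 with quantile normalization or median-of-ratios scaling, and 8 with voom. NFS1, the cysteine desulfurase that supplies the sulfur, fell in both lines, by -0.49 in Huh7 (adjusted p = 0.00517) and -0.57 in HepG2 (adjusted p = 0.00146). FDX1, a ferredoxin, had 15.5 ± 0.616 FPKM with geniposide and 18.7 ± 0.283 FPKM untreated in Huh7, and 10.6 ± 1.01 FPKM with geniposide and 17.8 ± 0.817 FPKM untreated in HepG2, and its fall was larger in HepG2 (difference -0.45, adjusted p = 0.00528). BOLA3 and GLRX5, late-acting assembly factors, fell in HepG2 (-0.96, adjusted p = 0.000212 and -0.49, adjusted p = 0.000512). Of 10 tested genes of mitochondrial iron, 1 rose and 3 fell in Huh7 (list median -0.13) and 1 rose and 5 fell in HepG2 (list median -0.20). SLC25A37, the mitochondrial iron importer mitoferrin 1, rose in both, to 9.04 ± 0.116 FPKM against 7.27 ± 0.328 FPKM untreated in Huh7 and to 20.4 ± 0.484 FPKM against 14.2 ± 0.475 FPKM untreated in HepG2. CISD1, an outer-membrane iron-sulfur protein, fell in both (-0.47, adjusted p = 0.00177 in Huh7 and -0.52, adjusted p = 0.000617 in HepG2).

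Haem-linked iron release gave 2 rises and 2 falls among 7 tested genes in Huh7 (list median -0.10) and 0 rises and 2 falls in HepG2 (list median -0.19). HMOX2, the constitutive haem oxygenase, fell in both lines (-0.46, adjusted p = 6.23e-05 in Huh7 and -0.39, adjusted p = 8.61e-05 in HepG2), while the inducible HMOX1 was not called in the fit of all 12 libraries (-0.82, adjusted p = 0.124 in Huh7 and -0.31, adjusted p = 0.572 in HepG2). HMOX1 had 8.36, 8.51 and 33.0 FPKM in Huh7 with geniposide, against 24.3, 23.8 and 25.8 FPKM untreated. Replicate 3 lay over the untreated libraries and the other 2 lay under them. Without it the Huh7 value was -1.44 (adjusted p = 2.8e-07) and the HepG2 value was called too (-0.31, adjusted p = 0.000672). In HepG2 the haem list had 4 calls without that library, and 1 without untreated HepG2 replicate 1 or 3 or geniposide HepG2 replicate 1 or 2. Common targets of NRF2, a factor that also acts on ferritin genes, gave 2 rises and 4 falls among 13 in Huh7 (list median -0.14) and 1 rise and 7 falls in HepG2 (list median -0.40). Without geniposide Huh7 replicate 3 there were 2 rises and 7 falls in Huh7 and 1 rise and 10 falls in HepG2, and with the Huh7 libraries alone 3 genes were called in Huh7. Thioredoxin TXN fell to 167 ± 14.3 FPKM in HepG2 with geniposide, against 296 ± 4.45 FPKM untreated, and to 146 ± 3.97 FPKM in Huh7 with geniposide, against 239 ± 9.46 FPKM untreated. In HepG2, NQO1 (-0.52, adjusted p = 0.000939) and GCLM (-0.39, adjusted p = 0.000178) fell, while OSGIN1 had 2.07 to 3.29 FPKM with geniposide and 1.34 to 1.61 FPKM untreated. The part of NRF2 in the FTH1 values was not tested. SLC7A11, the cystine importer, had 22.3 ± 9.90 FPKM with geniposide and 6.17 ± 0.620 FPKM untreated in Huh7 (1.63, adjusted p = 0.000252, or 1.30 without geniposide Huh7 replicate 3), and 3.04 ± 0.225 FPKM with geniposide and 4.65 ± 0.131 FPKM untreated in HepG2 (-0.48, adjusted p = 0.0922).

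**Figure D4:**
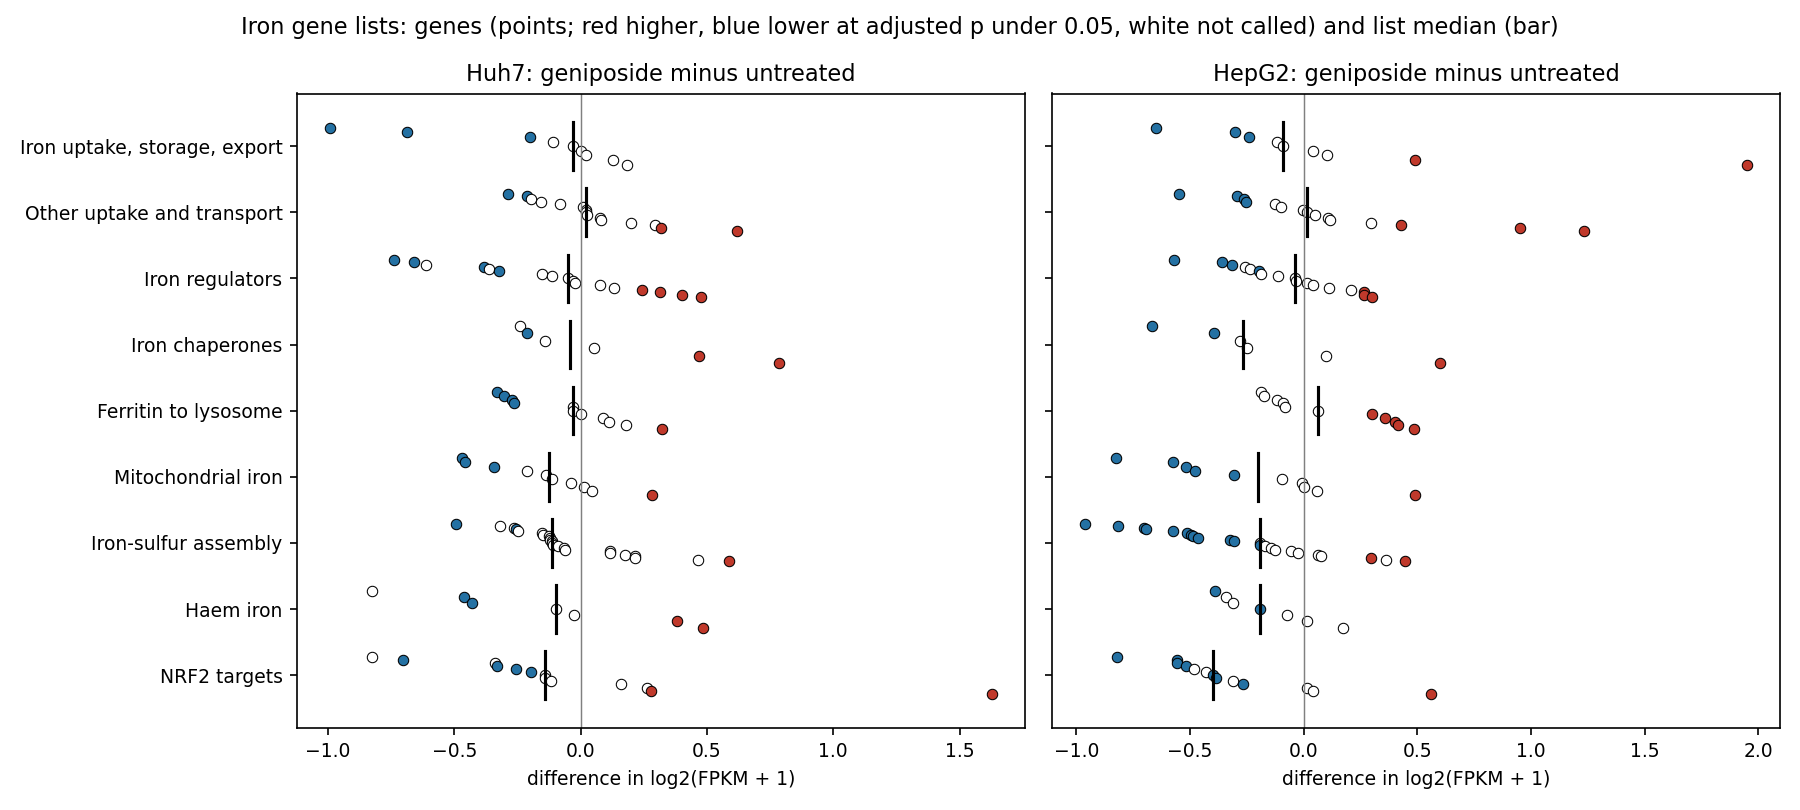
Geniposide effect in log2(FPKM + 1) of each tested gene of the iron lists in Huh7 and HepG2. Points are genes and the bar is the list median. List medians lie between -0.14 and 0.02 in Huh7, and in HepG2 the lowest is that of the NRF2 targets at -0.40 and the highest that of ferritin delivery to the lysosome at 0.06.

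The genes whose levels followed FTH1 most closely were ranked by the smaller of the Pearson correlations within the 6 Huh7 and the 6 HepG2 libraries, over 12150 protein-coding genes. They were ZFYVE1 (0.98), C11orf96 (0.976), LEMD2 (0.975), SMAD4 (0.969) and ARHGAP39 (0.966). For TFRC they were LARP4 (0.997), DHX57 (0.994), CDC27 (0.993), SEC23IP (0.992) and YWHAB (0.991). These coefficients describe 2 sets of 6 libraries each, in which the treatment itself sets most of the spread, and each was picked as the highest of many.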

How the data were processed

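Poly(A) RNA of 12 samples in 4 groups of 3 was analysed from 1 table. FPKM per gene was computed by the authors before deposit. CASAVA, fastp and build hg38 are named per the submitters' processing notes, while the aligner, the counter and its treatment of strand and overlaps were not given in the sources used here. FPKM times gene length gave whole fragments for 100% of values within 0.05, and these served for depth and for voom. The library total implied by FPKM was not the sum of these fragments. It was 1.15 to 1.17 times the sum in geniposide Huh7, 1.09 to 1.10 times in untreated Huh7 and 0.895 to 0.914 times in HepG2. FPKM was thus scaled differently by group from summed fragments. All 10 members have the coordinates of GENCODE 29. No column was left unmapped.

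Changes were fitted with limma 3.58.1 (R 4.3.3) on log2(FPKM + 1), a scale that shrinks changes of genes below about 1 FPKM, as 4 group means over 12 samples with 8 residual degrees of freedom, a variance trend on intensity and two-sided p-values adjusted by Benjamini-Hochberg over 15518 genes with 1 FPKM or more in at least 3 samples. SLC40A1 was read from an unfiltered fit of that model. The fit was tested on simulated data. Ratios had an exact permutation test within lines. Alternatives covered the pseudocount, filters, TPM, quantile and median-of-ratios scaling, voom, no trend, each line alone, a replicate block and leaving out each library. The labels do not say whether samples are separate cultures, so p-values cover only sample-to-sample spread, which could be technical. The limma intervals cover that same spread, and the floors (3 fragments) cover counting error only.

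The members and lists were chosen with earlier results of these data known. Genes named beside the members are a set of 10 iron genes (1 of which is not reported here), up to 4 called genes of each list per treatment comparison with the smallest p, and the 5 closest to FTH1 and to TFRC. Overlapping genes, markers and haemoglobin genes were named after their values were seen.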

Additional observations from a re-analysis of the deposited data

Results flagged for a closer look

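The geniposide effect differed between the lines past the limma threshold (adjusted p under 0.05) for 4 members and for other iron genes named by the rule. Values are the HepG2 effect minus the Huh7 effect on the log2(FPKM + 1) scale. Among members, FTH1 differed by 0.31, SLC11A2 by -0.43, CP by 1.95 and STEAP3 by 1.09. CP had at most 6 fragments in a Huh7 library, so its difference repeats its HepG2 rise.

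In uptake and transport, TFR2 differed by 0.41, CYBRD1 by 0.87, SNX3 by 0.33 and SLC22A17 by -0.31. TFR2 was near 0 in Huh7 and SLC22A17, a receptor for siderophore carriers, was near 0 in HepG2. Of the regulators, EPAS1 differed by 0.95, BMP2 by 0.70, BMPR2 by 0.42 and ACVR1 by -0.46.

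For iron-sulfur assembly, FDX1 differed by -0.45, BRIP1 by -0.63, BOLA3 by -0.70 and GLRX5 by -0.38, all toward lower HepG2 effects, as did CISD3 by -0.71. In the ferritin delivery list, LAMP1 differed by 0.39, LAMP2 by 0.67, ATG9A by 0.72, TAX1BP1 by 0.40 and ATG7 by -0.50. SLC48A1, a haem transporter, differed by -0.56, the haem exporter FLVCR1 by 0.60, the mitochondrial importer SLC25A37 by 0.21 and PCBP4 by -1.04. SLC7A11 differed by -2.11. Under other settings the TFR2 difference lost its call with a pseudocount of 0.1 (0.30, adjusted p = 0.254) and was -1.03 with voom (adjusted p = 0.369). SLC22A17 lost its call under 7 settings, among them voom with 0.58 (adjusted p = 0.597). SLC25A37 lost its call under 5 settings (adjusted p up to 0.231), GLRX5 without a filter (adjusted p = 0.0536) and with the replicate block (adjusted p = 0.0682), and CISD3 with the block (adjusted p = 0.0502). When single libraries were left out, the calls of FTH1, STEAP3, GLRX5, TAX1BP1, SLC25A37 and SLC22A17 were each lost at least once, with the adjusted p reaching 0.0684 for GLRX5, 0.0547 for TAX1BP1, 0.0932 for SLC25A37 and 0.0684 for SLC22A17.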

How the results depend on the processing

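With each line fitted alone, 0 members were called in Huh7, against 3. The difference between lines had 2 members called without a filter and 2 with the replicate block, against 4. Leaving out 1 library gave 2 to 4 called members in Huh7, 4 to 6 in HepG2, 2 to 5 for the difference and 8 to 9 between untreated lines.

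These values changed sign (log2), and all but the TFR2 and SLC22A17 differences were not called beforehand. NCOA4 in Huh7 was 0.045 with TPM, 0.0755 with quantile, 0.0115 with median-of-ratios and 0.0446 with voom. With quantile, CP was -0.0065, HFE -0.00737 and PCBP1 0.0148 in Huh7. The ACO1 difference was 0.0111 with median-of-ratios, and IREB2 between lines was 0.0386 with the block. With voom the differences were -0.00657 for TFRC, -1.12 for SLC40A1, -1.03 for TFR2 and 0.58 for SLC22A17. The SLC40A1 difference was -0.13 with a pseudocount of 0.1 and -0.0135 with TPM. Leaving out 1 library gave -0.138 to 0.255 for the TFRC difference, -0.0382 to 0.173 for SLC40A1 and -0.0449 to 0.0287 for ACO1, and in Huh7 -0.0731 to 0.00852 for NCOA4, -0.0146 to 0.0203 for CP and -0.00381 to 0.158 for HFE. The cause was not tested.

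Equal replicate numbers did not pair samples (correlations of deviations -0.0615 to 0.0201). The replicate block called 4520 genes in Huh7, against 5357, and 5952 in HepG2, against 6602, with 2 and 4 members. For the ratios, flipping pairs gave an exact p of 0.0312, the smallest it allows, which follows from the same lack of overlap. The share of calls that were higher in Huh7 was 47.5%, against 61.6% with TPM, 60.5% with voom and 38.8% with the 5 FPKM filter. Counts of 0 to 7 fragments limit SLC40A1 in HepG2 and CP in Huh7.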
